A study of Mus musculus with 6 samples.

Results

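The connexin genes are described here in HL-1, a line of cardiomyocytes from the mouse atrium, after silencing of the long noncoding RNA Malat1. They were chosen by name from a list of 8 connexin genes, of which 6 (Gja1, Gja4, Gja5, Gjb5, Gjc1 and Gjd3) were found among the 21269 genes of the table, while Gja3 and Gjb2 were not analysed here. All cells were grown with norepinephrine in the medium and transfected with 50 nM of a locked nucleic acid (LNA) gapmer, a short antisense strand that directs the cutting of the RNA it pairs with, either a control gapmer (LNA Control, 3 libraries) or one against Malat1 (LNA Malat1, 3 libraries). RNA was collected 48 hours after transfection. Each group comes from the same cell line, and the labels do not say whether its libraries came from separate cultures, so the p-values measure the spread between these libraries, which may be technical.

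Connexins are membrane proteins that assemble into rings, and the rings of neighbouring cells dock to form gap junction channels, through which ions and small molecules pass from cell to cell. In the heart these channels carry the action potential from one cardiomyocyte to the next. Gja1 encodes Cx43, the main connexin of working myocardium, Gja5 encodes Cx40 of the atria and the conduction system, Gjc1 encodes Cx45 of the nodes and the early heart, and Gjd3 encodes a connexin of the mouse atrioventricular node. Gja4 encodes Cx37, known from endothelium, and Gjb5 encodes a connexin known from skin and placenta.

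In Malat1-silenced cells Gja1 rose 3.72-fold (95% interval 2.75 to 5.05), and it was the only one of the 3 tested connexins of the list to be called. Gjc1, which had the highest level of the listed genes in every library, had a fold of 0.91 (95% interval 0.82 to 1.00) and was not called. Gjd3 had a fold of 0.74 (95% interval 0.51 to 1.07) and was not called. Gja5, Gja4 and Gjb5 lay between 0 and 5 normalized counts in all libraries, under the mean of 5 that was needed for a test.

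The values are normalized counts, that is, the reads assigned to each gene, which the authors divided by a factor specific to each library and rounded. They summed to between 4758777 and 4921406 per library, and the reads recovered from the steps that rounding leaves numbered between 4512253 and 5593499 per library. A gene was tested with limma on log2(normalized count + 1) when its mean was at least 5, and the log2 difference is LNA Malat1 minus LNA Control on that scale. Calling a gene required both a 1.5-fold difference and an adjusted p no larger than 0.05. Of the 15650 genes tested, 8.0% were called higher and 2.92% lower. With quantile normalization 774 genes were called higher and 695 lower, so that 52.7% of the calls were higher against 73.3% as deposited. Malat1 itself had a log2 difference of -0.80 (SE 0.07, limma adjusted p = 7.5e-06) and a fold of 0.57, and its 3 LNA Malat1 libraries all lay below the LNA Control libraries. LNA Malat1 replicates 1 and 3 differed by less than the sampling noise over 14522 genes that had 20 or more reads between them (chi-square of 0.95 per gene), and they were counted as 1 sample in each mean ± SD (n = 2), while the test used all 6 libraries. Over such genes replicates 1 and 2 gave 1.012 per gene (chi-square p = 0.15) and replicates 2 and 3 gave 1.16. Among genes with at least 1600 reads every pair differed beyond the sampling noise, with a chi-square of 1.11 per gene for replicates 1 and 3 (p = 0.00054), 1.66 for replicates 1 and 2, and 2.06 for replicates 2 and 3.

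Of the markers of atrial cardiomyocytes, 10 of 12 listed genes were analysed and 9 were tested. Ttn and Actn2, sarcomere genes, were the 2 called higher, beside 8.0% of all genes tested, and none was called lower. Under the fold change minimum, Tnnt2 was higher (log2 difference 0.15, limma adjusted p = 0.034) and Pln lower (log2 difference -0.25, limma adjusted p = 0.0037). Ttn was at 8524 or more in all libraries, whereas Myh6, the atrial and adult myosin heavy chain gene, lay between 0 and 7 and Myl7, the atrial light chain gene, between 18 and 32 normalized counts. The 6 fibroblast markers analysed summed to between 5574 and 6284 normalized counts in LNA Control and between 4948 and 5093 in LNA Malat1, and the 7 smooth muscle and pericyte markers to between 1801 and 2007 and between 1962 and 2092. Among the latter, all 7 tested, Pdgfrb was the 1 called higher, beside 8.0% of all genes tested. The mean of Pdgfrb was 22.7, and 15.4% of genes with a mean from 20 to below 100 were called higher. None was called of the fibroblast (5 tested), endothelial (4 tested) or epithelial (1 tested) markers. Col3a1 was lower under the fold change minimum (log2 difference -0.33, limma adjusted p = 0.0014), and no fibroblast marker was higher at an adjusted p of at most 0.05. Col1a2 lay between 0 and 1 normalized counts, whereas Col1a1 lay between 1794 and 2486. The 5 endothelial markers summed to between 100 and 117 over the 6 libraries, and Vwf lay between 2 and 4. The 6 epithelial markers summed to between 8 and 16 and between 16 and 26, with Krt14 and Cldn4 at 0 in all control libraries. The 4 leukocyte markers summed to between 38 and 39 and between 65 and 97. All 3 tested (Csf1r, Cd68 and Cd79a) were called higher, beside 8.0% of all genes tested. Csf1r and Cd68 had means from 20 to below 100, where 15.4% of genes were called higher. Cd79a had a mean from 5 to below 20, where 17.2% of genes were called higher and the median log2 difference was 0.37. In bulk RNA, a change in the number of cells of a type and a change in RNA per cell cannot be told apart, and the part of these markers in the connexin results was not tested.

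To show the sequence before the genes of the main ventricular and atrial connexins, Gja1 and Gja5, the 250 bases before their transcription starts are shown (RefSeq, GRCm38.p6, plus strand, chr10:56377050-56377299 and chr3:97032152-97032401). Motifs were searched by their letters on both strands, namely the AP-1 site with TGANTCA, the GC box with GGGCGG and the half-site of T-box factors with GGTGTG. The motif of GATA factors was searched as AGATAA. For the box bound by the TATA-binding protein the letters were TATAAA. The matches do not overlap each other, and capitals mark them. The Gja5 window lies 127.7 kb inside the annotated gene, before the start used by 2 of its 3 GENCODE transcripts, and the third transcript starts upstream.
Gja1: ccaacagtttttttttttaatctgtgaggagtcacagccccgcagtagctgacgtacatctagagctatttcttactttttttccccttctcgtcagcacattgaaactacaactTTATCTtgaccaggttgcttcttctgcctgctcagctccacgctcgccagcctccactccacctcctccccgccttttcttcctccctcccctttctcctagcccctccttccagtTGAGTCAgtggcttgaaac
Gja5: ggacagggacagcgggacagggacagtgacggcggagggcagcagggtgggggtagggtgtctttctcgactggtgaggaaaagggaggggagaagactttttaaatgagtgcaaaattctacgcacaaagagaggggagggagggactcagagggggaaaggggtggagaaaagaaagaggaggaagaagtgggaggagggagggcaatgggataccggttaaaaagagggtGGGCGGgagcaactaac
The Gja1 window held an AP-1 match at chromosome 10, 56377281 to 56377287, and a GATA match on the other strand at 56377165 to 56377170. An AP-1 match was present in 6.75% of 32851 promoter windows of the same length and a GATA match in 9.99%. The Gja5 window held a GC box match, which 32.7% of the windows had. The T-box letters were found in neither window and in 16.3% of all windows, and the TATA box letters in neither and in 12.4%. A match is a run of letters and not a measured binding site. Promoter sequences were given for 4 of the 6 genes, and none for Gjc1 or Gjd3, the tested genes that were not called. The Gja4 window held a GC box match, and the Gjb5 window a T-box and a TATA box match. Neither held an AP-1 or a GATA match. Both genes were under the mean of 5 needed for a test, so their windows cannot be set against a response. Whether any match bears on the level of its gene was not tested.

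Gja1 (ENSMUSG00000050953) lies on the plus strand of chromosome 10 (mm10, 56377330 to 56402513). Its normalized counts were 21, 13 and 18 in LNA Control replicates 1, 2 and 3. They were 68, 59 and 72 in LNA Malat1 replicates 1, 2 and 3. Every LNA Malat1 library lay above every LNA Control library. Control cells averaged 17.3 ± 4.0 (SD, n = 3) and Malat1-silenced cells 64.5 ± 7.8 (SD, n = 2). The log2 difference was 1.90 (SE 0.20, limma adjusted p = 2.6e-05). These values rest on 52 recovered reads in the 3 LNA Control libraries and 210 in the 3 LNA Malat1 libraries. Groups that did not overlap, with LNA Malat1 above, were found in 20.5% of all genes tested, and groups without overlap in either direction in 41.3%. Rises were common among genes of this level, since 15.4% of the 3414 genes with a mean from 20 to below 100 were called higher and their median log2 difference was 0.14. Among them, 34 genes (Gja1 included) had a log2 difference at least as large as that of Gja1. Gja1 remained called with every alternative in which it was tested.

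**Figure D1:**
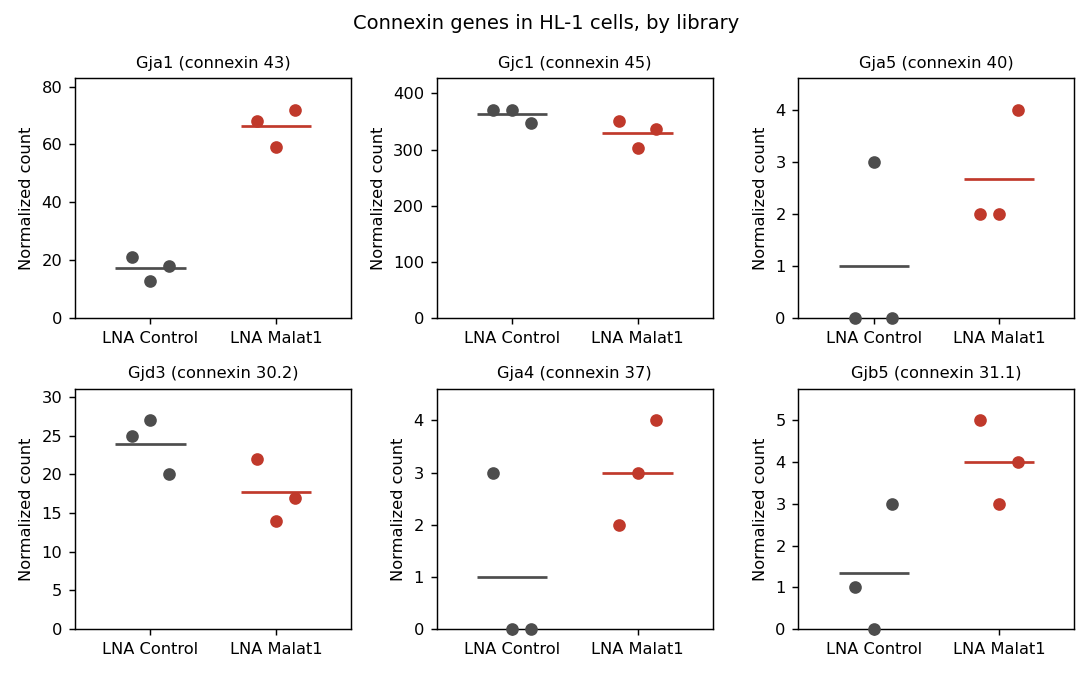
Normalized counts of the 6 connexin genes (vertical axes from 0, one scale per gene) in the 3 LNA Control and 3 LNA Malat1 libraries, one point per library, with the mean of the 3 libraries as a line. Gja1 goes from 13 to 21 in LNA Control to 59 to 72 in LNA Malat1, and the groups overlap in the other 5 genes.

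Gjc1 (ENSMUSG00000034520), on the minus strand of chromosome 11 (mm10, 102799579 to 102819700), had 370, 371 and 348 normalized counts in the control libraries. It had 351, 302 and 337 in LNA Malat1. Replicate 1 of LNA Malat1 lay above replicate 3 of LNA Control, so the groups overlapped. The mean was 363.0 ± 13.0 (SD, n = 3) and 323.0 ± 29.7 (SD, n = 2), and the log2 difference was -0.14 (SE 0.07, limma adjusted p = 0.14). The 95% interval of the difference, from -0.28 to 0.01 on the log2 scale, lay inside a 1.5-fold change in both directions. The recovered reads numbered 1086 and 1047 in the groups, more than for any other listed gene.

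Gjd3 (ENSMUSG00000047197), annotated as a single exon of 837 bases that holds the coding sequence and its stop codon alone, on the minus strand of chromosome 11 (mm10, 98982180 to 98983016), had normalized counts of 25, 27 and 20 in the control libraries and 22, 14 and 17 after Malat1 silencing. The groups overlapped at replicate 1 of LNA Malat1. The mean was 24.0 ± 3.6 (SD, n = 3) and 16.8 ± 3.9 (SD, n = 2), with a log2 difference of -0.43 (SE 0.24, limma adjusted p = 0.21). Its 95% interval ran from -0.96 to 0.09 on the log2 scale and reached past a 1.5-fold fall, so that a fall of that size cannot be told from none at this depth. With quantile normalization its log2 difference was -0.76 (limma adjusted p = 0.041) and it was called lower.

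Gja5, the gene of the atrial connexin Cx40 (ENSMUSG00000057123, chromosome 3, mm10, 96904693 to 97077416), was near 0 in these atrial cells. It had normalized counts of 0, 3 and 0 in the control libraries and 2, 2 and 4 after Malat1 silencing, or 3 and 8 recovered reads in all. The groups overlapped, and no fold is given because both groups were near the limit that a count of 0 allows (3 reads, or 3.26 normalized counts in LNA Control replicate 1 and 2.59 in replicate 3). Such limits cover counting error only. In the annotation 165 exonic bases of Gja5 are shared with Gpr89 on the other strand, and reads from the genes cannot be told apart there without strand, a setting of the counting that is not given in the sources used here.

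Gja4 and Gjb5 lie on the minus strand of chromosome 4 (mm10), at 127311421 to 127314039 and 127354809 to 127358181. Gja4 (ENSMUSG00000050234) had normalized counts of 3, 0 and 0 in the control libraries and 2, 3 and 4 after Malat1 silencing. Gjb5 (ENSMUSG00000042357) had 1, 0 and 3 in the control libraries and 5, 3 and 4 after Malat1 silencing. In both genes the highest LNA Control library reached into the LNA Malat1 group, and the recovered reads (3 and 9 for Gja4, 4 and 12 for Gjb5) were too few to show a difference at this depth. When all genes with any count were tested, the limma adjusted p was 0.15 for Gja4, 0.20 for Gja5 and 0.12 for Gjb5.

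Outside the list, Gja6, a testis connexin gene closely related to Gja1, had 8, 11 and 17 normalized counts in the control libraries and 18, 15 and 22 after Malat1 silencing, with a log2 difference of 0.62 (SE 0.31, limma adjusted p = 0.16). It was called in 1 of 15 alternatives, without LNA Control replicate 3 (log2 difference 0.88, limma adjusted p = 0.044), whereas without LNA Control replicate 1 the log2 difference was 0.38 (limma adjusted p = 0.38) and with quantile normalization 0.24 (limma adjusted p = 0.56). The mean of Gja6 was 15.2, and genes with a mean from 5 to below 20 had a median log2 difference of 0.37. The counting left out reads that aligned to several places, so stretches that Gja1 and Gja6 share may be undercounted in both. Gja10, a retinal connexin gene, lay between 0 and 3 normalized counts.

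**Figure D2:**
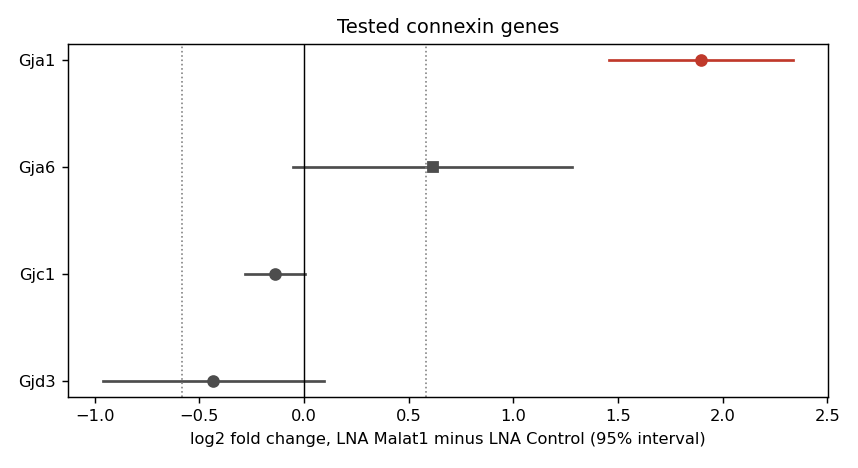
Log2 fold change of the 3 tested connexin genes of the list and of Gja6 (horizontal axis, LNA Malat1 minus LNA Control) with 95% intervals from limma, circles for the genes of the list and a square for Gja6, and dotted lines at a 1.5-fold change. Gja1, at 1.90, is the only gene drawn in red as called, and the intervals of Gjc1, Gjd3 and Gja6 include 0.

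Whether the connexins differed from each other in their response was tested on the log2 ratio of each pair of the 3 tested members in each library. The ratio of Gja1 to Gjc1 was -4.08, -4.73 and -4.20 in the control libraries and -2.35, -2.34 and -2.21 after Malat1 silencing, a difference of 2.04 with no overlap. The ratio of Gja1 to Gjd3 differed by 2.33, also with no overlap. The ratio of Gjc1 to Gjd3 differed by 0.29, and the groups overlapped. The exact permutation test (two-sided, 3 against 3 libraries) gave p = 0.1 for both ratios with Gja1, the smallest p it allows, and p = 0.2 for Gjc1 to Gjd3. Adjusted over the 3 pairs, the exact permutation p was 0.15, 0.15 and 0.2.

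Levels between genes were compared per kilobase of exon. In LNA Control, Gjc1 was highest with 72.6 ± 2.6 normalized counts per kilobase (SD, n = 3), followed by Gjd3 with 28.7 ± 4.3, Gja1 with 1.69 ± 0.39, Gjb5 with 0.77 ± 0.89, Gja4 with 0.59 ± 1.03 and Gja5 with 0.17 ± 0.30. The last 3 did not differ beyond their spread, and Gjb5 in its highest control library (1.74) reached into the range of Gja1 (1.27 to 2.05), while Gjc1 and Gjd3 were apart from each other and from Gja1 in every library. In LNA Malat1 the order of the means was the same, with Gjc1 at 64.6 ± 5.9 (SD, n = 2), Gjd3 at 20.01 ± 4.65 and Gja1 at 6.29 ± 0.76 normalized counts per kilobase. The place of Gja1 depends on the length assigned to it. Per kilobase of the principal coding transcript, Gja1 had 21.4, 18.5 and 22.6 in LNA Malat1 replicates 1, 2 and 3. Gjd3 had 26.3, 16.7 and 20.3 there, so Gja1 and Gjd3 were not apart on that scale. Because the annotated model of Gjd3 has no untranslated exon sequence, its reads per kilobase are not on the same footing as those of the other genes. Among all genes tested, the level of Gjc1 per kilobase of exon over the 6 libraries stood above 66.4% of the genes, that of Gjd3 above 38.4% and that of Gja1 above 9.52%.

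The share of Gja1 in the summed level of the 6 genes was 1.89%, 1.17% and 1.81% in the control libraries and 6.17%, 6.63% and 7.01% after Malat1 silencing, with no overlap (exact permutation p = 0.1, the smallest possible, and 0.4 adjusted over 4 measures). The share of Gjc1 was 69.5% ± 1.9 (SD, n = 3) and 67.9% ± 2.4 (SD, n = 2), with overlap. The share of Gja5 was 0.70% or less in every library. The summed level was 104.5 ± 6.5 normalized counts per kilobase (SD, n = 3) in control cells and 95.3 ± 12.1 (SD, n = 2) after Malat1 silencing, and the groups overlapped (exact permutation p = 0.5). The shares depend on the length assigned to Gja1, whose annotated exons together span 10257 bases although its principal coding transcript has 3182. With the length of the principal coding transcripts the share of Gja1 was 3.32%, 2.07% and 3.11% in the control libraries and 10.5%, 10.9% and 11.6% after Malat1 silencing, and the share of Gjc1 then differed with no overlap, by -6.13 percentage points. Per kilobase of exon, Gja1 stood at 0.023 of the level of Gjc1 in LNA Control and at 0.098 of it in LNA Malat1. With the length of the principal coding transcripts it stood at 0.035 and 0.146.

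**Figure D3:**
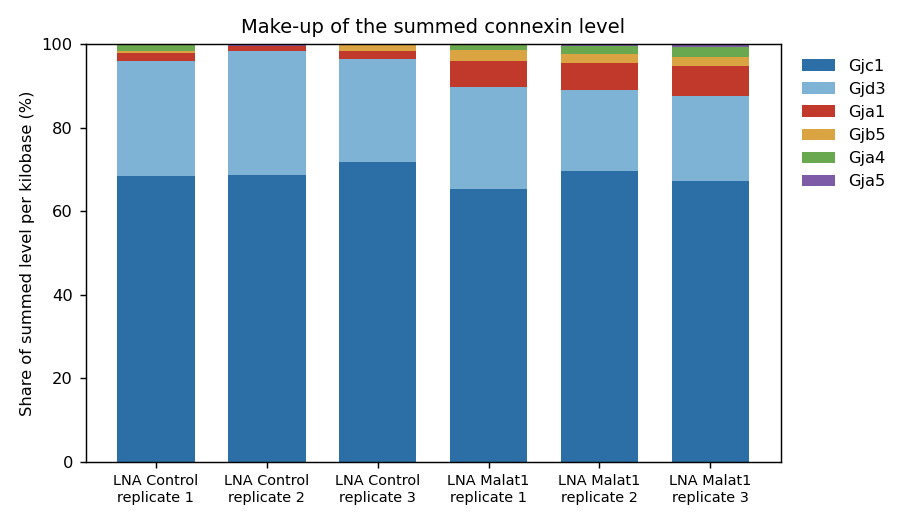
Share of each of the 6 connexin genes in their summed level per kilobase of exon (vertical axis, percent), one bar per library. Gjc1 holds between 65.3% and 71.7% of each bar, and the share of Gja1 lies between 1.17% and 1.89% in LNA Control and between 6.17% and 7.01% in LNA Malat1.

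The genes with the most similar course were sought by Pearson's r of log2(normalized count + 1) over the 6 libraries, among genes with a mean of at least 50, as a description without a test. The points fall into both groups, so r is high for any gene that separates them. For Gja1 the highest were P2rx7, with 312, 280 and 303 normalized counts in the control libraries and 419, 409 and 427 after Malat1 silencing (r = 1.00), Wnk4 (r = 0.998) and Tmem80 (r = 0.998), and 338 of 10490 genes had an r of at least 0.95. For Gjc1 they were Mtx3 (r = 0.99), 2900076A07Rik (r = 0.98) and Nlgn2 (r = 0.98), and 27 of 10489 genes had an r of at least 0.95.

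Among 17 tested genes that are known to regulate connexin genes, 2 (Tbx3 and Fos) were called higher and none was called lower, by limma and by voom alike, beside 8.0% and 2.92% of all genes tested. Tbx3 and Fos had means of 31.7 and 40.7, and 15.4% of genes with a mean from 20 to below 100 were called higher. At an unadjusted p under 0.05, 6 of the 17 were higher and 4 lower, beside 20.7% and 19.2% of all genes tested. Tbx3, a T-box repressor that marks the sinus and atrioventricular nodes, where Gja1 and Gja5 are kept low, had 17, 20 and 12 normalized counts in the control libraries and 46, 42 and 53 after Malat1 silencing, with no overlap (log2 difference 1.49, SE 0.22, limma adjusted p = 0.00035). Fos, which encodes a subunit of AP-1, had 15, 27 and 28 normalized counts in the control libraries and 63, 51 and 60 after Malat1 silencing, with no overlap (log2 difference 1.32, SE 0.23, limma adjusted p = 0.001). Jun, its partner in AP-1, had a log2 difference of 0.27 (SE 0.08, limma adjusted p = 0.03), under the 1.5-fold minimum. The highest of the list by count were Tbx20, an early cardiac T-box factor (log2 difference -0.03, limma adjusted p = 0.72), and Sp1, a GC box factor (log2 difference -0.16, limma adjusted p = 0.032). Nkx2-5, the cardiac homeobox activator of Gja5, had 207, 201 and 194 normalized counts against 211, 187 and 207 (log2 difference 0.01, limma adjusted p = 0.96). Without a fold change minimum, 5 of the 17 genes were higher and 4 lower, against 14.3% and 14.0% of all genes tested. Their median log2 difference was 0.01, beside 0.02 over all genes tested.

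Of 15 tested genes for kinases and phosphatases that act on Cx43, none was called at 1.5-fold in either direction (limma, and none by voom), beside 10.9% of all genes tested. Their means ran from 190 to 1817, a range in which calls were rarer. With a mean from 100 to below 500, 2.47% of genes were called higher and 3.59% lower. From 500 upward, 0.34% and 2.22% were. At an unadjusted p under 0.05, none of the 15 was higher and 10 were lower, beside 20.7% and 19.2% of all genes tested. Without the fold change minimum, 9 were lower and none higher, against 14.0% lower over all genes tested. Shares without a fold minimum were taken over all genes and not by level, so they are not matched to the means of this list. Prkca and Prkce, the genes of the protein kinases C alpha and epsilon, moved most. Prkca fell from 638, 640 and 618 normalized counts to 432, 436 and 450 (log2 difference -0.52, SE 0.05, limma adjusted p = 1.2e-05). Prkce fell from 677, 676 and 612 to 438, 469 and 481 (log2 difference -0.50, SE 0.06, limma adjusted p = 6.7e-05). Csnk1a1, a casein kinase gene, was the highest by count (log2 difference 0.05, limma adjusted p = 0.53), and Ppp2ca, the gene of a phosphatase catalytic subunit, was lower by a log2 difference of -0.27 (limma adjusted p = 0.0024). The median log2 difference of the list was -0.17, beside 0.02 over all genes tested. The median was -0.04 in genes with a mean from 100 to below 500 and -0.05 from 500 upward.

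Among 16 tested partners of connexins at the cell junction, Cxadr, the gene of an adhesion receptor of the intercalated disc, was the 1 called higher, and none was called lower (limma, with 1 and none by voom), beside 8.0% and 2.92% of all genes tested. At an unadjusted p under 0.05, 5 were higher and 3 lower, beside 20.7% and 19.2%. The normalized counts of Cxadr were 35, 59 and 38 in the control libraries and 80, 80 and 77 after Malat1 silencing, with no overlap (log2 difference 0.87, SE 0.18, limma adjusted p = 0.0033). Its mean was 61.5, and 15.4% of genes with a mean from 20 to below 100 were called higher. Dsp, the desmoplakin gene, rose under the fold change minimum from 1755, 1821 and 1769 to 2389, 2179 and 2278 normalized counts (log2 difference 0.36, limma adjusted p = 0.00049). Ank3, the ankyrin G gene, fell from 1742, 1645 and 1696 to 1151, 1145 and 1206 (log2 difference -0.54, limma adjusted p = 1.1e-05). Vcl and Dsg2, the highest by count, had log2 differences of -0.01 and -0.11 (limma adjusted p = 0.87 and 0.16), and the median of the list was -0.02. Tjp1, the gene of the scaffold protein ZO-1 that binds the Cx43 tail, had 1404, 1429 and 1434 normalized counts against 1425, 1376 and 1375 (log2 difference -0.03, limma adjusted p = 0.67).

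Of 15 tested genes of connexin trafficking and turnover, none was called in either direction (limma, and none by voom), beside 10.9% of all genes tested. Their means ran from 124 to 3217, a range in which calls were rarer. With a mean from 100 to below 500, 2.47% of genes were called higher and 3.59% lower. From 500 upward, 0.34% and 2.22% were. At an unadjusted p under 0.05, 2 of the 15 were higher and 4 lower, beside 20.7% and 19.2% of all genes tested. Without a fold change minimum, 1 was higher and 2 lower, against 14.3% and 14.0% of all genes tested. Eps15 fell from 1169, 1158 and 1088 normalized counts in the control libraries to 852, 866 and 875 after Malat1 silencing (log2 difference -0.40, limma adjusted p = 0.00011). Nedd4, the gene of a ubiquitin ligase that acts on Cx43, was the highest by count (log2 difference -0.11, limma adjusted p = 0.26), followed by Clip1, the gene of a microtubule tip protein (log2 difference -0.05, limma adjusted p = 0.51). The pannexins form channels of another family that resemble connexin rings. Panx3 had 4, 0 and 6 against 7, 12 and 7 normalized counts, with no overlap (log2 difference 1.52, SE 0.64, limma adjusted p = 0.094). It was called in 2 of 15 alternatives, without LNA Control replicate 1 (log2 difference 1.83, limma adjusted p = 0.038) and without LNA Control replicate 3 (log2 difference 2.07, limma adjusted p = 0.028), whereas without LNA Control replicate 2 the log2 difference was 0.67 (limma adjusted p = 0.28). The mean of Panx3 was 6.0, and genes with a mean from 5 to below 20 had a median log2 difference of 0.37. Panx2 lay between 0 and 2.

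**Figure D4:**
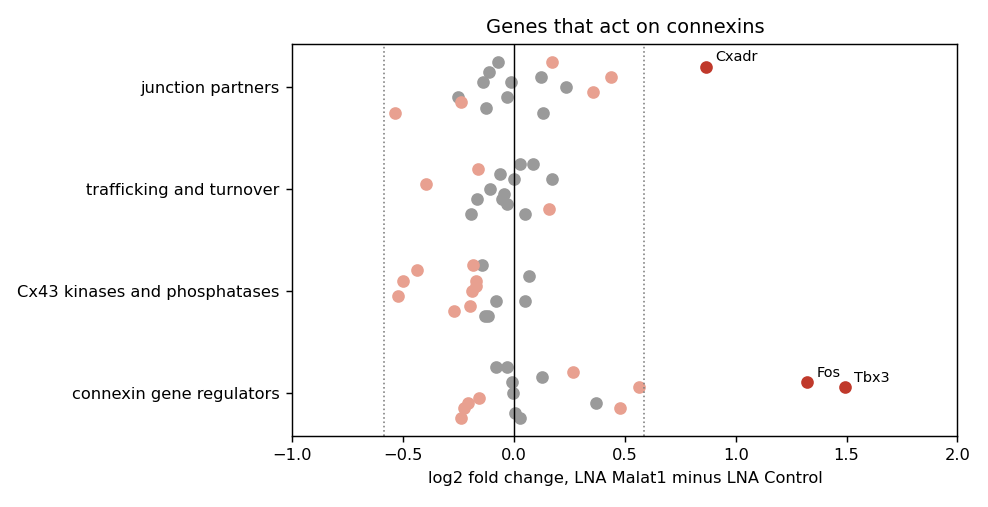
Log2 fold change (horizontal axis, LNA Malat1 minus LNA Control) of the tested genes of 4 lists, one point per gene, with dotted lines at a 1.5-fold change; red marks called genes, pale red an adjusted p of at most 0.05 under that fold, and grey the rest. Fos and Tbx3 among the regulators and Cxadr among the junction partners lie beyond the line, and the points of the kinase and phosphatase list past the test all lie left of 0.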

How the data were processed

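RNA of 6 HL-1 libraries (3 LNA Control, 3 LNA Malat1, grouped by the sample titles) was analysed. According to the methods and labels, the authors used Trimmomatic 0.39, STAR 2.7.7a (mm10, Ensembl release 101) and featureCounts 1.6.5, which summed exonic reads by gene and omitted ambiguous and multiply aligned ones, and normalized with DESeq2 1.30.0. The deposited values are a score, namely gene counts divided by a library's factor and then rounded, so no test for raw counts served as the main test.

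Genes with a mean of at least 5 (15650) were tested by limma 3.58.1 (R 4.3.3), two-sided with a trend on intensity, on log2(normalized count + 1), and p was adjusted by Benjamini-Hochberg over all of them. This scale understates the change of low genes. The test was checked on simulated independent libraries with 1 dispersion for all genes. It called 165 of 197 changed genes (83.8%) and 3 unchanged genes. In the data the spread was unequal. Over genes with 20 or more reads in a pair, chi-square per gene was 1.77 to 4.18 between LNA Control libraries and 0.95 to 1.16 between LNA Malat1 libraries. The simulation did not include this, so it does not show how the test behaves under it. Reads recovered from the steps that rounding leaves are approximate, and the factor of LNA Malat1 replicate 2 was weakly supported. Single values were compared by exact permutation tests (scipy 1.17.1), which cannot give a p under 0.1 here. Lengths and overlaps came from GENCODE M21 (21224 of 21269 identifiers matched).

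The members, gene lists and tests were chosen with earlier results of these data known. Named genes were Malat1, all members, the genes most like Gjc1 and Gja1, and from each further list the called genes and the 2 highest by count. Jun, Nkx2-5, Prkca, Prkce, Dsp, Ank3, Tjp1, Eps15, Gja6, Gja10, the singly named markers and the motifs were chosen after values were seen. So was the principal transcript length for the shares. Some genes that the rule names are not reported here. Alternatives were a replicate block, other pseudocounts, filters, scalings and fold minimums, voom on recovered reads, merging LNA Malat1 replicates 1 and 3, and leaving out each library.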

Additional observations from a re-analysis of the deposited data

How the results depend on the processing

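Gja1 was called higher in all 15 alternatives in which it was tested, with a log2 fold change between 1.66 and 2.04 and a limma adjusted p between 6.2e-07 and 0.00099, and between 1.71 and 2.04 with each library left out. With a mean of at least 50 it was not tested, so 0 connexins were called higher, because fewer genes entered. Gjc1 lay between -0.19 and -0.08 and was never called. Gjd3 was called lower only with quantile normalization (-0.76, 1 connexin called lower, the cause was not tested) and ranged from -0.59 to -0.29 when single libraries were omitted. The same replicate numbers gave correlations of deviations of 0.086, 0.182 and 0.083, under the 0.1 set for pairing in 2 of 3, although every library correlated best with its own number, as a hint from the data. With the replicate number as a block, Gja1 had a limma adjusted p of 2.9e-05, 1297 genes were called higher and 442 lower, and no connexin call changed.

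Over all genes, 1252 were called higher and 457 lower. The numbers were 317 higher and 349 lower with a mean of at least 50 (47.6% of the calls higher), 774 and 695 with quantile normalization, 2231 and 2195 with no fold change minimum, 742 and 99 at 2-fold, and 831 higher with LNA Malat1 replicates 1 and 3 as 1 sample. With each library left out, 810 to 1582 were higher and 406 to 475 lower, the lowest without LNA Malat1 replicate 1 (810) or 3 (812).

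The difference in the summed connexin level (LNA Malat1 minus LNA Control) was -6.36 normalized counts per kilobase and turned to 16 normalized counts without length correction. All differences here use the mean of 3 libraries in each group. That mean in LNA Malat1 was 98.1 for the summed level and 67.4% for the share of Gjc1. With replicates 1 and 3 as 1 sample it was 95.3 and 67.9%. The difference in the share of Gja1 was 4.98 percentage points as reported, 11.4 without length correction and 8.17 with principal transcripts, and that of Gjc1 was -2.15, -11.1 without length correction and -6.13 with principal transcripts. With each library left out, the summed level differed by -11.1 (without LNA Malat1 replicate 1) to -0.66 (without LNA Malat1 replicate 2), with -10.1 without LNA Control replicate 3, and the share of Gjc1 by -3.26 (without LNA Malat1 replicate 2) to -1.04 (without LNA Control replicate 3), with -1.08 without LNA Malat1 replicate 1. The share of Gja1 differed by 4.75 to 5.199 and its log2 ratio to Gjc1 by 1.84 to 2.17. Tbx3 and Fos were called in all 15 alternatives that tested them and Cxadr in all 16, while Csf1r, Cd68 and Cd79a were called in 12, 9 and 5 of 15, Pdgfrb in 13 of 15, Actn2 in 15 of 16 and Ttn in 14 of 16. Depth limits Gja5, Gja4 and Gjb5, which had 12 reads or fewer per group.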
